A study of Mus musculus with 6 samples.

Results

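The growth factor genes of the germ cell niche described here are Gdnf, Kitl, Fgf2, Cxcl12, Csf1, Bmp4, Inhba, Igf1 and Lif, 9 of the 49671 gene rows in the count table. They were chosen by name, for their known roles, with earlier results of these data already known. Each was found in the table by its Ensembl identifier through the GENCODE M21 annotation. RNA was sequenced from whole testes of mice on a C57BL/6J background at 12 days post-partum, with 3 Ankrd31-/- libraries (KO) and 3 Ankrd31+/+ libraries (WT). The labels put 3x before both genotypes and the design text does the same, which is read here as 3 mice of each. Both groups shared strain, age and tissue, and the labels name no other allele or treatment. Ankrd31 encodes an ankyrin-repeat protein that works with the machinery making the DNA breaks of meiosis.

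Spermatogenesis depends on signals from the somatic cells around the germ cells. Sertoli cells and peritubular myoid cells secrete GDNF, which keeps spermatogonial stem cells renewing through the RET kinase and its co-receptor GFRA1, while Sertoli cells make KIT ligand (the product of Kitl), which supports differentiating spermatogonia through the KIT kinase. FGF2, CXCL12, CSF1 and LIF act on stem cells or their neighbours, BMP4 and activin A (a dimer of the Inhba product) belong to the TGF-beta superfamily, and IGF1 supports Leydig and Sertoli cells. At this age the first germ cells are passing through early meiotic prophase, so somatic RNA and early germ cell RNA both make up a large part of a whole testis.

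The libraries held 21014060 to 22706296 counts assigned to genes, and 18040 genes passed the filter on low counts, all 9 growth factor genes among them. Levels are given as CPM, gene counts scaled to the effective library size. Ankrd31 stood at 40.8, 33.2 and 38.0 CPM in KO replicates 1, 2 and 3, against 84.9, 52.3 and 63.3 CPM in WT replicates 1, 2 and 3, without overlap. Which exons the mutant allele lacks is not given in the labels, and any exon it keeps adds to these values. The defining markers of Sertoli cells, peritubular myoid cells, Leydig cells, spermatogonia and early meiotic cells were all detected. WT replicate 3 stood apart in Cdh16, an epithelial gene on the epididymis and rete list. Cdh16 had 0, 0.87 and 0.95 CPM in KO replicates 1, 2 and 3, and 0.63, 0.4 and 11.5 CPM in WT replicates 1, 2 and 3. The 6 tested genes of that list summed to 141, 155 and 134 CPM in KO replicates 1, 2 and 3. In WT replicates 1, 2 and 3 they summed to 147, 162 and 164 CPM. The list sum thus did not set WT replicate 3 apart, but a sum follows its most abundant genes. Averaged over the 6 genes, the log2 ratio of KO over WT was -0.05, -0.08 and -1.75 between libraries numbered 1, 2 and 3. The gap on this list was therefore between the libraries numbered 3 and was not limited to the sum or to a shift in all pairs.

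To order the genes by level, CPM were divided by the summed exon length in kilobases (RPKM), and the values below are means ± SD over all 6 libraries. Kitl, on mm10 chromosome 10 from 100015630 to 100100413, was the most abundant at 63.9 ± 8.23 RPKM, higher than 95.6% of tested genes. Igf1 followed at 16.3 ± 2.78 RPKM and Cxcl12 at 12.4 ± 1.26 RPKM. Kitl lay above Igf1 in 6 of 6 libraries with no overlap of their ranges. The ranges of Igf1 and Cxcl12 overlapped, although Igf1 was the higher of the pair within each library. A middle group held Inhba at 4.53 ± 1.54, Gdnf at 4.11 ± 0.839, Csf1 at 3.98 ± 0.474, Fgf2 at 2.81 ± 0.430 and Bmp4 at 2.73 ± 0.495 RPKM. Each of these overlapped its neighbour in the order, so neighbours are not told apart. Inhba, Gdnf and Csf1 each exceeded Bmp4 in 6 of 6 libraries, and the range of Csf1 (3.29 to 4.60 RPKM) lay wholly above that of Bmp4 (2.12 to 3.27 RPKM). Lif was the least abundant at 0.427 ± 0.083 RPKM, above 10.4% of tested genes and below Bmp4 in every library.

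**Figure D1:**
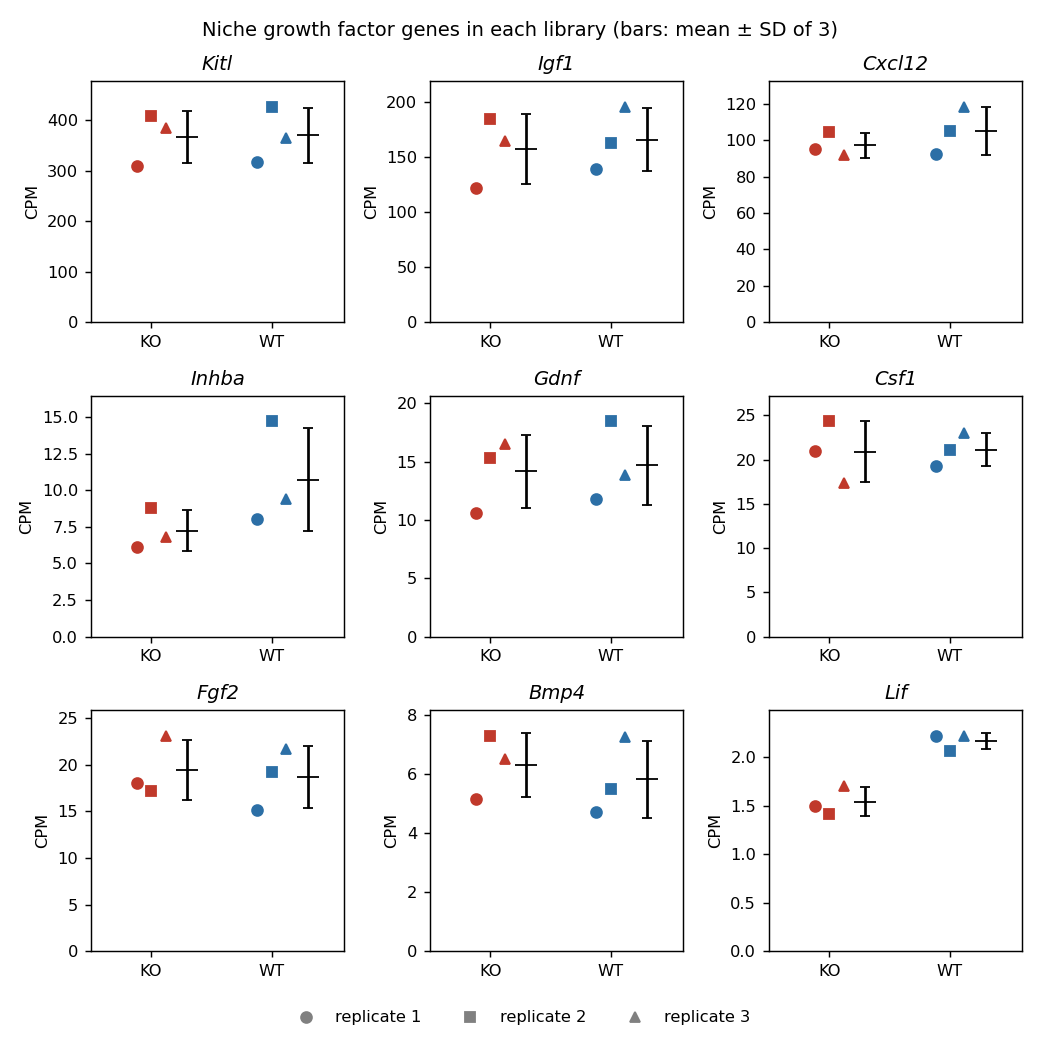
CPM of each growth factor gene in each library, KO at the left of each panel and WT at the right, with the marker shape giving the replicate number and the bar the mean ± SD of 3 libraries. Lif shows KO libraries (1.42 to 1.71 CPM) below all WT libraries (2.07 to 2.22 CPM), and in the other 8 panels the groups overlap.

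None of the 9 genes passed as higher or lower in KO testes after adjustment. In edgeR's quasi-likelihood test (two-sided, Benjamini-Hochberg adjustment over 18040 genes), 0 of 9 passed, against a background of 0.0% of all tested genes. The count was also 0 in DESeq2 and in limma voom, and 0 in each with the replicate number as a block, where edgeR called 0.0443% of all genes. At an unadjusted p under 0.05, edgeR held 2 of the 9, Inhba and Lif, both lower in KO, against 2.07% of all tested genes in either direction and 1.23% lower in KO. The other 7 had log2 fold changes (KO over WT) between -0.11 and 0.12. Their own 95% intervals show what sizes of change the 6 libraries leave room for, and those of Gdnf and Kitl are given below. The intervals ran from 0.807 to 1.46 fold for Bmp4, 0.821 to 1.32 for Fgf2 and 0.8 to 1.07 for Cxcl12. For Csf1 the interval was 0.813 to 1.2 fold, and for Igf1 it was 0.706 to 1.27 fold. In whole testes, fewer cells of a type and less RNA per cell cannot be told apart.

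The stem cell factor Gdnf (mm10 chromosome 15, 7811011 to 7837575, plus strand) had 10.6, 15.3 and 16.5 CPM in KO replicates 1, 2 and 3. In WT replicates 1, 2 and 3 it had 11.8, 18.4 and 13.8 CPM. The groups overlapped, and replicate 1 was the lowest of its group in both genotypes. The log2 fold change was -0.06 ± 0.20 (SE, edgeR adjusted p = 1). Its 95% interval ran from 0.698 to 1.33 fold.

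The differentiation factor Kitl had 309.6, 408 and 384 CPM in KO replicates 1, 2 and 3, and 317, 426 and 365 CPM in WT replicates 1, 2 and 3. Replicate 1 was again lowest and replicate 2 highest in each genotype. The means of 367 ± 51.3 CPM in KO and 369.8 ± 54.7 CPM in WT (SD, n = 3 each) differed by a log2 fold change of -0.01 ± 0.13 (edgeR adjusted p = 1), with a 95% interval of 0.810 to 1.22 fold. With the replicate block the log2 interval narrowed to -0.10 to 0.08. Gene counts do not separate the membrane-bound and soluble forms of KIT ligand.

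BMP4, which promotes the differentiation of spermatogonia, and FGF2, a factor that supports their proliferation in culture, had the only positive estimates. Bmp4 had 5.14, 7.28 and 6.49 CPM in KO replicates 1, 2 and 3, against 4.71, 5.5 and 7.24 CPM in WT replicates 1, 2 and 3. Fgf2 had 18.0, 17.2 and 23.1 CPM in the KO replicates and 15.2, 19.2 and 21.7 CPM in the WT replicates. Both genes overlapped between the genotypes, and the lowest of the 6 values was that of WT replicate 1 for each. The log2 fold changes were 0.12 ± 0.19 for Bmp4 and 0.06 ± 0.15 for Fgf2 (edgeR adjusted p = 1 for each). The opposite-strand gene Nudt6 overlaps Fgf2 and had 157 to 215 counts per library. The strand setting of the counting is not given in the sources used here, so part of the Fgf2 counts could belong to Nudt6.

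Cxcl12, the chemokine gene whose product attracts CXCR4-bearing undifferentiated spermatogonia, had 95.1, 104.8 and 91.7 CPM in KO and 92.2, 104.8 and 118 CPM in WT replicates 1, 2 and 3. The highest value belonged to WT replicate 3, the library with the high Cdh16 value. That library was also the highest of the 6 in summed interstitial stroma (2766 CPM), endothelial (209 CPM) and undifferentiated spermatogonia (380 CPM) markers. It was the lowest in Sertoli markers (7862 CPM). The part of cell composition in the Cxcl12 values was not tested. The Cxcl12 log2 fold change of -0.11 ± 0.09 (edgeR adjusted p = 1) became -0.01 without WT replicate 3. It was -0.20 without WT replicate 1 (edgeR unadjusted p = 0.0363, adjusted p = 0.565). Igf1 had 122, 185 and 165 CPM in KO and 139, 163 and 196 CPM in WT replicates 1, 2 and 3, and WT replicate 3 was highest here too. Its log2 fold change was -0.08 ± 0.18 (edgeR adjusted p = 1) and 0.07 without WT replicate 3. Csf1, whose product acts on testicular macrophages and spermatogonia through CSF1R, had 20.9, 24.3 and 17.4 CPM in KO and 19.2, 21.1 and 23.1 CPM in WT replicates 1, 2 and 3. Its log2 fold change was -0.02 ± 0.13 (edgeR adjusted p = 1), and KO replicates 2 and 3 marked the highest and lowest of the 6 values.

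**Figure D2:**
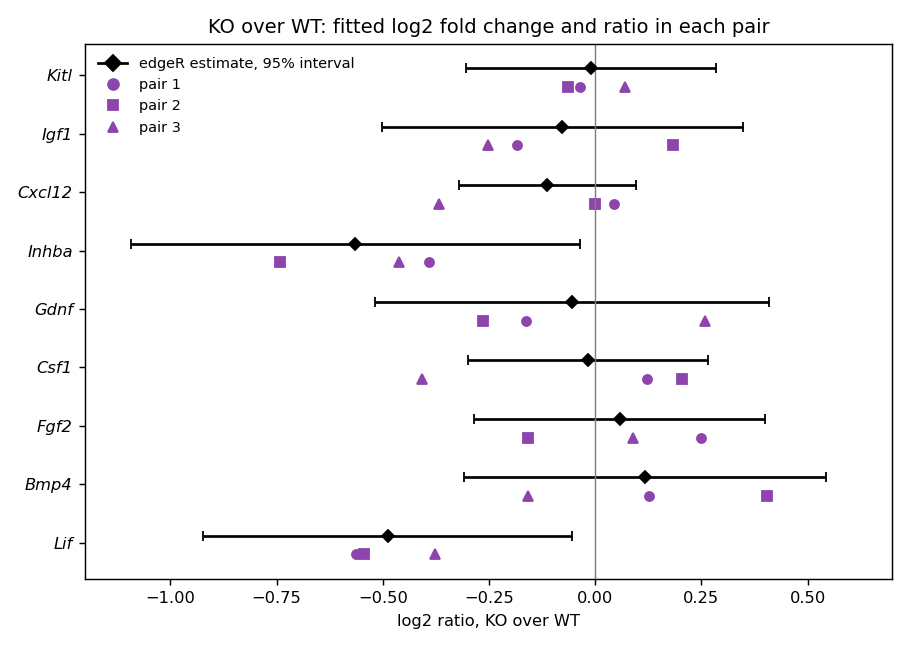
Log2 ratio of KO over WT for each growth factor gene, with the edgeR estimate and its 95% interval (diamond and bar) above the ratio in each same-number pair (purple). Inhba and Lif lie below 0 in all 3 pairs, while the other 7 genes have pairs on both sides of 0 and intervals that include it.

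Inhba (mm10 chromosome 13, 16011851 to 16027211, plus strand), which encodes the beta-A subunit shared by activin A and inhibin A, had the lowest estimate. In GENCODE M21 the gene runs on to 16031621, so any exon past the deposited end is missing from its counts and length. The opposite-strand genes B230303A05Rik and Gm48444 overlap it, and no counts were available for them. Inhba had 6.15, 8.79 and 6.8 CPM in KO replicates 1, 2 and 3, against 8.06, 14.7 and 9.37 CPM in WT replicates 1, 2 and 3. KO was lower in 3 of 3 pairs, a pattern shown by 14.6% of all tested genes, but KO replicate 2 lay above WT replicate 1, so the groups overlapped. The means were 7.25 ± 1.38 CPM in KO and 10.7 ± 3.51 CPM in WT (SD, n = 3 each), or 67.7% of the WT level. The log2 fold change was -0.56 ± 0.23 with an unadjusted edgeR p of 0.0392 and an adjusted p of 1. With the replicate block it was -0.54 ± 0.12, with an unadjusted edgeR p of 0.000505 (7.48% of all genes were under 0.05 in that fit) and an adjusted p of 0.194. Without WT replicate 2 the value was -0.27 (edgeR adjusted p = 1). With the replicate block and without pair 2, which removes the highest library of both genotypes, it was -0.43 (edgeR unadjusted p = 0.0110, adjusted p = 0.600). Of the 206 listed genes, Hsd17b3, a testosterone synthesis gene on the Leydig list, had the profile nearest to Inhba, with a root mean square difference of 0.123 in centred log2 CPM over 6 libraries. Hsd17b3 had 17.8, 21.3 and 14.8 CPM in KO replicates 1, 2 and 3, and 19.6, 36.3 and 24.6 CPM in WT replicates 1, 2 and 3. Summed over its 9 members the Leydig list gave 379, 795 and 268 CPM in KO replicates 1, 2 and 3. In WT replicates 1, 2 and 3 it gave 363, 408 and 413 CPM. The list was thus highest in KO replicate 2, whereas Inhba and Hsd17b3 were highest in WT replicate 2. The part of Leydig cells in the Inhba values was not tested. Hbb-bt, an adult beta-globin gene of red blood cells, was the second nearest (0.174). The erythroid list summed to 60.0, 68.7 and 61.0 CPM in KO replicates 1, 2 and 3, and to 60.3, 95.4 and 59.2 CPM in WT replicates 1, 2 and 3. WT replicate 2 was thus the highest library in erythroid markers as in Inhba, and the part of blood in the Inhba values was not tested.

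Lif (mm10 chromosome 11, 4257557 to 4272514, plus strand), a cytokine gene of the interleukin 6 family, was the only growth factor gene whose groups did not overlap, where 6.58% of all tested genes showed the same. It had 1.5, 1.42 and 1.71 CPM in KO replicates 1, 2 and 3, against 2.22, 2.07 and 2.22 CPM in WT replicates 1, 2 and 3. These values rest on 33, 31 and 38 counts in KO and on 49, 47 and 47 counts in WT libraries. Counting error alone is thus 16.2% to 18.0% of a KO value and 14.3% to 14.6% of a WT value. The log2 fold change was -0.49 ± 0.19, at an unadjusted edgeR p of 0.0312 and an adjusted p of 1. In DESeq2 the unadjusted p was 0.128. The 95% interval of 0.528 to 0.963 fold is that of a single gene and takes no account of the number of genes tested. Fgf7, a fibroblast growth factor gene, and Nanos3, an RNA-binding regulator of spermatogonia, had the profiles nearest to Lif, with root mean square differences of 0.0971 and 0.116. Nanos3 likewise did not overlap between the groups (log2 fold change -0.41 ± 0.16, edgeR adjusted p = 1).

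The stretches upstream of the start sites of Inhba, Lif and Gdnf are shown because the first 2 had the lowest estimates and Gdnf, the central stem cell factor, did not. Sequences are from RefSeq (build GRCm38.p6, the assembly of mm10), on the plus strand, 5′ to 3′, and stop before the RefSeq start or the start of the deposited gene model, whichever comes first. They cover chr13:16011601-16011850 for Inhba, chr11:4257318-4257556 for Lif and chr15:7809798-7810047 for Gdnf. Capitals mark matches on either strand to any of 6 motifs. The TATA box was searched as TATAAA. The GC box, which binds SP1, was searched as GGGCGG. The core of the cAMP response site was searched as TGACG. The AP-1 site was searched as TGACTCA with any base allowed in its middle position. The STAT site was searched as TTCNNNGAA, and the E-box motif as CACGTG.
Inhba: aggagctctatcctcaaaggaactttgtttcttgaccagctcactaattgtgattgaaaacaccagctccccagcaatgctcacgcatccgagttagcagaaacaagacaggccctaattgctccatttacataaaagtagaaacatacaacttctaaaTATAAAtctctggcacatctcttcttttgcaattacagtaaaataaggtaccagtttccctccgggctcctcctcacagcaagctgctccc
Lif: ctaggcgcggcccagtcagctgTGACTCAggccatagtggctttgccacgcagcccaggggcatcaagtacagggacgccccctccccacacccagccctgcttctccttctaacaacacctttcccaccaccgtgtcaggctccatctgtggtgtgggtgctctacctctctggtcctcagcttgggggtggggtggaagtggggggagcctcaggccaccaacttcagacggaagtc
Gdnf: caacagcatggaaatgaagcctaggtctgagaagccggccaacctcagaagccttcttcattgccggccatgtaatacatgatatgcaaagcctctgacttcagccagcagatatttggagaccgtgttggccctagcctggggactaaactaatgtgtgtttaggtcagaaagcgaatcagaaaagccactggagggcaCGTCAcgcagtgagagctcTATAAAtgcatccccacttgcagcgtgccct
A TATAAA match began at position -31 from the RefSeq start in Gdnf and at -91 in Inhba, and 12.4% of the 32851 mouse stretches of 250 bases held one. Gdnf also held TGACG, on the minus strand at -50 (17.8% of stretches). Lif held the AP-1 site at -228 (6.75%) and no TATAAA. The Inhba and Lif stretches thus shared none of the 6 motifs with each other. The deposited Gdnf model starts at 7811011, downstream of the RefSeq start at 7810048 that the stretch shown precedes. RefSeq holds another Gdnf start at 7813727, for which no stretch is shown, so the positions given apply to the upstream start alone.

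Genes that receive these ligands were compared next. Of 35 genes for receptors and their proximal signal carriers, 34 were tested, 0 passed in edgeR in either direction, and 0 were under an unadjusted p of 0.05 without the block. Their median log2 fold change was -0.002, beside -0.005 over all tested genes, with 16 above 0 and 18 below. Kit, the KIT ligand receptor gene, stood at 184.5 ± 12.6 CPM in KO and 185 ± 6.52 CPM in WT (SD, n = 3 each), a log2 fold change of -0.003 ± 0.07. The GDNF receptor genes Gfra1 (-0.09 ± 0.12) and Ret (-0.15 ± 0.10) did not pass either (edgeR adjusted p = 1 for each). The widest estimates belonged to Bmpr1b, a type I BMP receptor gene (-0.60 ± 0.28), to the neurturin co-receptor gene Gfra2 (-0.45 ± 0.30) and to the CXCL12 receptor gene Cxcr4 (0.40 ± 0.23). Cxcr4 had 13.9, 14.1 and 7.66 CPM in KO and 10.6, 8.44 and 8 CPM in WT replicates 1, 2 and 3, so KO replicate 3 lay below every WT library. Bmpr1b had 2.46, 2.75 and 3.38 CPM in KO and 2.94, 3.78 and 6.34 CPM in WT replicates 1, 2 and 3. Its highest value came from WT replicate 3. With the block, 4 of the 34 were under an unadjusted p of 0.05 in edgeR, against 7.48% of all tested genes, and 0 passed.

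**Figure D3:**
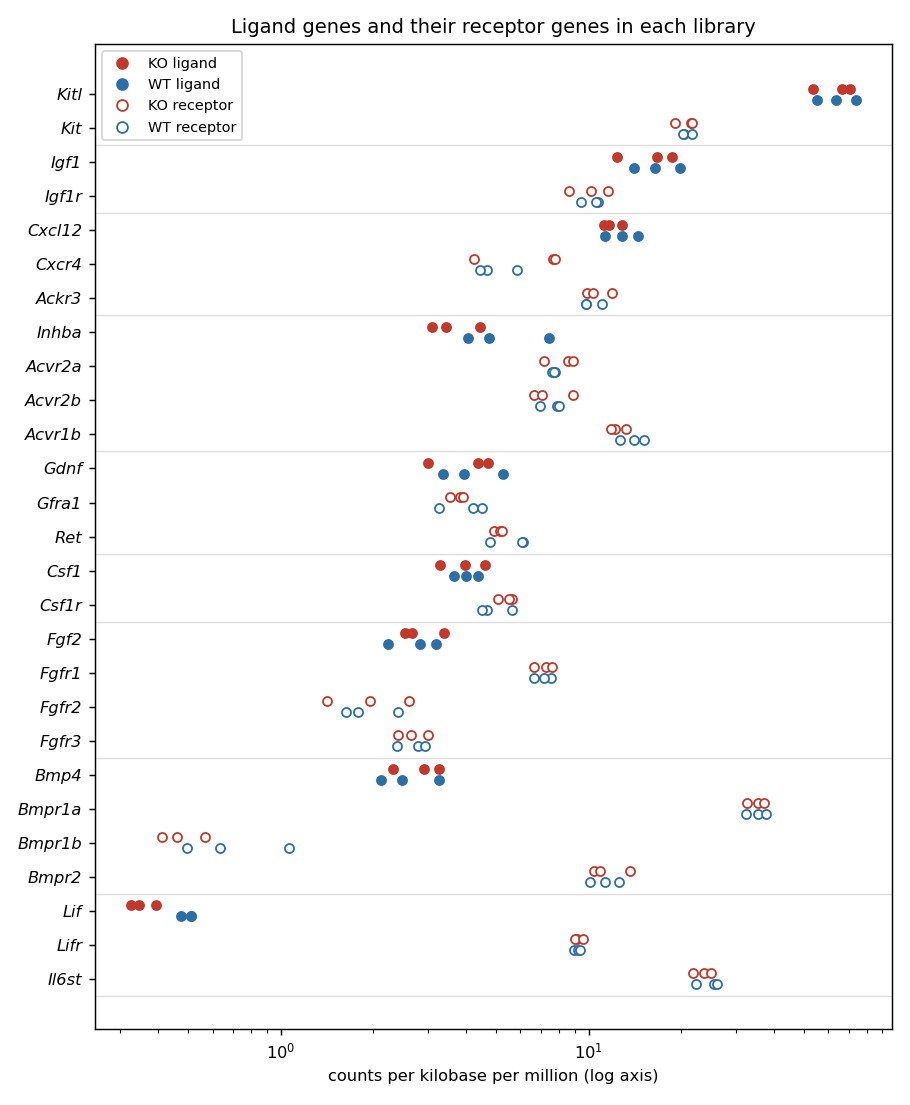
RPKM (log axis) of each ligand gene (filled) and its receptor genes (open) in every library, KO above WT within a row. Kitl exceeds Kit in every library, Lif lies below Lifr and Il6st, and Bmp4 lies below Bmpr1a and Bmpr2.

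Ratios within a library do not depend on its size, and 4 were compared by an exact two-sided permutation test, whose smallest possible p is 0.1 with 3 against 3. The log2 ratio of Kitl over Kit per length was 1.49, 1.72 and 1.62 in KO and 1.43, 1.87 and 1.55 in WT replicates 1, 2 and 3. The genotypes differed by -0.005 (exact p = 1). For Gdnf over Gfra1 the difference was 0.02 (exact p = 1), and the pair differences ran from -0.28 to 0.47. For Gdnf over Kitl it was -0.05 (exact p = 0.7). Inhba over Inha, the gene of the inhibin alpha subunit that turns an activin subunit into part of inhibin, had -6.51, -6.37 and -6.12 in KO and -6.23, -5.66 and -5.69 in WT replicates 1, 2 and 3. This difference of -0.47 was lower in KO in 3 of 3 pairs, but KO replicate 3 overlapped WT replicate 1 (exact p = 0.2). Over the 4 ratios, Benjamini-Hochberg adjustment gave 0.8 for Inhba over Inha and 1 for the others.

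**Figure D4:**
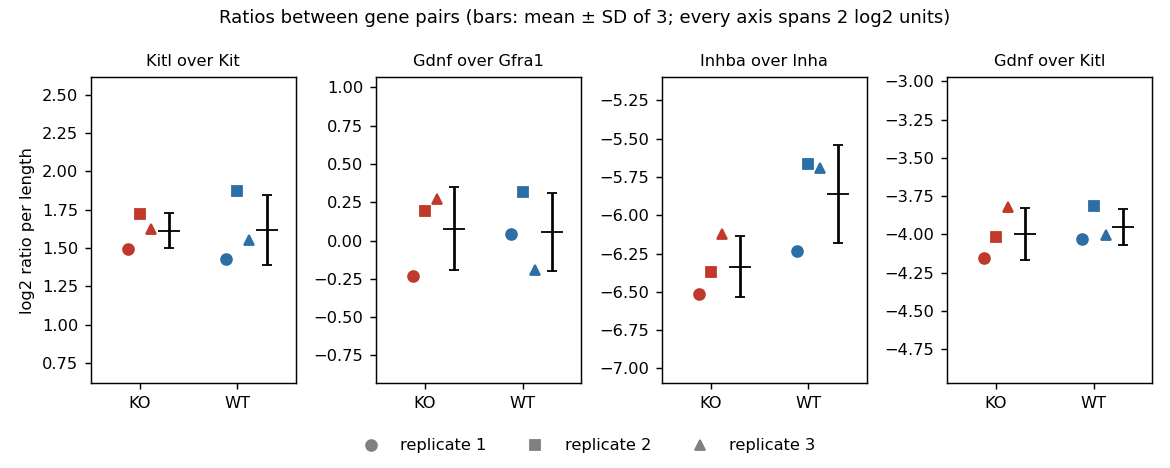
Log2 ratio per length of 4 gene pairs in each library, KO left and WT right in each panel, with the mean ± SD of 3. The Inhba over Inha panel has the widest gap between genotypes, -6.34 ± 0.199 in KO against -5.86 ± 0.320 in WT, and its groups still overlap.

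The subunit genes of inhibin and activin differed widely in level. Inha reached 297.5 ± 64.9 RPKM in KO and 309 ± 66.0 RPKM in WT, and Inhbb, the beta-B subunit gene, 71.5 ± 7.69 RPKM in KO and 75.8 ± 11.6 RPKM in WT (SD, n = 3 each). Inhba lay far below both, at 3.66 ± 0.695 RPKM in KO and 5.41 ± 1.77 RPKM in WT. The log2 fold changes were -0.06 ± 0.20 for Inha and -0.08 ± 0.12 for Inhbb (edgeR adjusted p = 1 for each).

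Partner genes were read in the same way, and of 89 listed 74 were tested, 0 passed in edgeR and 1, Bambi, was under an unadjusted p of 0.05, where 2.07% of all tested genes were. Bambi encodes a decoy receptor for BMP and activin. It had 22.04, 22.8 and 23.02 CPM in KO replicates 1, 2 and 3, against 24.9, 27.4 and 28.4 CPM in WT replicates 1, 2 and 3, without overlap. Its log2 fold change was -0.25 ± 0.08 (edgeR unadjusted p = 0.0131, adjusted p = 1). With the replicate block the edgeR adjusted p was 0.412. Of 29 tested related ligands 19 were below 0, with a median of -0.15. Over all tested genes 9418 of 18040 were below 0, with a median of -0.005. The mean log2 ratio of the ligands was -0.007, -0.032 and -0.204 in pairs 1, 2 and 3, so the lean lay mostly in pair 3. Among the ligands Ctf1, a cytokine gene of the LIF family (-0.44 ± 0.22), Bmp6 (-0.44 ± 0.23), Fgf7 (-0.42 ± 0.23) and Mdk, which encodes midkine (-0.24 ± 0.13), had the smallest p. Fgf7 was the only 1 of the 29 whose groups did not overlap, against 6.58% of all tested genes. Of 13 binders and antagonists 9 were below 0, with a mean log2 ratio of 0.082, 0.02 and -0.354 in pairs 1, 2 and 3. Fst, the gene of the activin trap follistatin, had 0.17 ± 0.14, the BMP-binding Bmper -0.31 ± 0.26 and Chrd, the chordin gene, -0.27 ± 0.27. Igfbp5, an IGF binding protein gene, had 19.8, 28.6 and 30.2 CPM in KO and 17.8, 31.1 and 84.3 CPM in WT replicates 1, 2 and 3, and WT replicate 3 was the high one. GDNF-responsive spermatogonial genes had 5 of 9 above 0, with Tspan8 at 0.20 ± 0.15 and Id4 at 0.17 ± 0.17, both higher in KO in 3 of 3 pairs, and with Lhx1 at -0.29 ± 0.24 and Bcl6b at -0.14 ± 0.12. Among 7 tested hormone receptor genes the largest estimate by size was that of the estrogen receptor gene Esr1 (-0.16 ± 0.14). Feedback genes had a median of -0.04 over 14 genes, the inhibitory Smad genes Smad6 and Smad7 standing at -0.30 ± 0.23 and -0.15 ± 0.12 and the cytokine feedback gene Socs3 at -0.21 ± 0.18. None of the genes named in this paragraph passed in edgeR (adjusted p = 1 for each).

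The 9 genes were also compared between replicate numbers. With genotype kept in the model, edgeR's test of the replicate number called 3 of the 9, Kitl (adjusted p = 0.00292), Inhba (adjusted p = 0.0183) and Gdnf (adjusted p = 0.0337), where 8.79% of all tested genes passed. Relative to replicate 1, Kitl had a log2 difference of 0.41 in replicate 2 and 0.26 in replicate 3, Gdnf 0.59 and 0.44, and Inhba 0.71 and 0.18. Kitl passed in 10 of 10 fits of this kind. Gdnf passed in 5 of 10, and did not in DESeq2 (adjusted p = 0.148), in limma voom (adjusted p = 0.0645) or without KO replicate 1, KO replicate 3 or WT replicate 1. Inhba also passed in 5 of 10, and did not in DESeq2 (adjusted p = 0.128) or without KO replicate 3, WT replicate 1, WT replicate 2 or WT replicate 3. Igf1 passed in DESeq2, in limma voom and without KO replicate 2 or WT replicate 2, and Fgf2 without either of these 2 libraries. The count was 5 without KO replicate 2, 4 without WT replicate 2, 2 without KO replicate 1 or WT replicate 3, and 1, Kitl, without KO replicate 3 or WT replicate 1. Over all genes the same fits called 2704 without KO replicate 2, 2041 without WT replicate 2, 1006 without KO replicate 1, 434 without WT replicate 3, 429 without KO replicate 3 and 279 without WT replicate 1, so the counts over the 9 moved with those over all genes. The labels do not say what a replicate number marks; same-numbered libraries were taken as pairs from the correlation of their deviations in these same data, so this test is not independent of that choice.

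**Figure D5:**
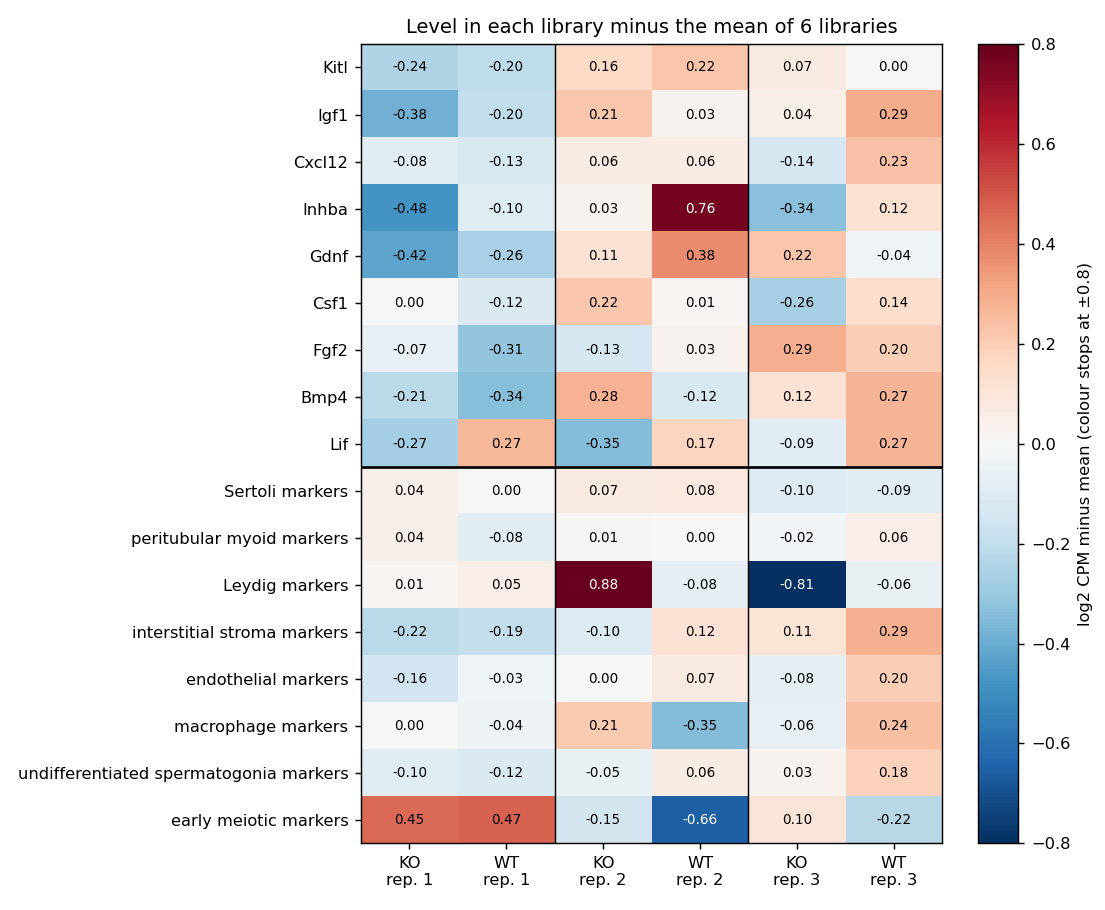
Level of each growth factor gene (upper rows) and mean of cell marker lists (lower rows) in each library, as log2 CPM minus the mean of 6 libraries, with KO left of WT within a replicate number. In replicate 1, Kitl and Gdnf lie between -0.42 and -0.20 in both genotypes while the early meiotic list lies at 0.45 in KO and 0.47 in WT.

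Cell marker lists varied between replicate numbers alongside these genes. The summed level of 8 early meiotic markers, such as the synaptonemal complex gene Sycp3, was 1876, 1356 and 1562 CPM in KO replicates 1, 2 and 3 and 1894, 1028 and 1304 CPM in WT replicates 1, 2 and 3. Replicate 1 was thus the highest of each group in meiotic markers and the lowest in Kitl, Gdnf, Inhba and Igf1. The 14 Sertoli markers summed to 8232 to 8962 CPM in KO and 7862 to 8855 CPM in WT libraries, and the 8 peritubular myoid markers to 1158 to 1167 CPM in KO and 1074 to 1217 CPM in WT. Interstitial stroma markers were lower in replicate 1, with 2104 CPM against 2213 and 2392 in the other KO libraries and 2003 CPM against 2402 and 2766 in the other WT libraries. The part of cell composition in the replicate differences was not tested.

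Profiles of the other growth factor genes over the 6 libraries were compared with those of the 206 listed genes by the same root mean square difference. Nearest to Kitl was Dnmt3b, a DNA methyltransferase gene (0.046), and then Pdgfa, a growth factor gene (0.0783). The difference between Gdnf and Kitl was 0.120. Tagln, a smooth muscle gene of the peritubular myoid list, was nearest to Fgf2 (0.047), followed by the BMP receptor gene Bmpr2 (0.075). Ptn, the pleiotrophin gene, was nearest to Cxcl12 (0.053), followed by Sohlh1, a transcription factor gene of spermatogonia (0.058). Csf1 was nearest to Cd68, a macrophage lysosomal gene (0.0607), and then to the artemin co-receptor gene Gfra3 (0.0669). Bmp4 was nearest to Bmp7 (0.113) and then to Igf1 (0.116). Igf1 was nearest to Hsd3b1, a steroid synthesis gene of the Leydig list (0.0923), and then to Esr1 (0.105). The mean of a marker's list could lie apart from the growth factor gene. In KO replicate 3, log2 CPM minus its mean was 0.29 for Fgf2 and -0.02 for the peritubular myoid list. There it was also 0.04 for Igf1 and -0.81 for the Leydig list. In WT replicate 2 it was 0.015 for Csf1 and -0.35 for the macrophage list. The likenesses over 6 libraries are given as descriptions of the named genes alone.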

How the data were processed

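RNA from whole testes was sequenced after a strand-specific library preparation, per the labels' protocols. The authors deposited raw read counts per gene with no normalization, and the submitters' processing notes name bcl2fastq 2.19.1, GSNAP, featureCounts 1.6.0 and mm10. How strand, multi-mapping reads and the choice of annotation were handled is not stated in the labels. The length column, other than the counts, holds the summed exon length in bases per the file headers. Of 49763 rows, 92 spike-in rows with 1 count in all were left out; 49412 of 49671 gene identifiers matched GENCODE M21, and 0 sample columns were unmapped.

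Testing used edgeR 4.0.16 under R 4.3.3 (low-count filter filterByExpr, TMM factors, robust quasi-likelihood F test, threshold 0.05 after Benjamini-Hochberg adjustment over 18040 genes), without a block. CPM and RPKM use effective library sizes, and log2 CPM a prior count of 2. Intervals of 95% use the fit's SE and degrees of freedom. DESeq2 1.42.0, limma 3.58.1 (voom), other scalings, filters and left-out libraries were alternatives; the test was checked on simulated counts. Same-numbered libraries had deviations correlated at 0.42, 0.26 and 0.28, each over 0.1, and were taken as pairs on that hint. No library duplicated another of its group, the chi-square per degree of freedom being 7.94 to 14.1 for genes whose summed count reached 20. The labels do not say whether the samples came from separate litters, so p-values measure the spread between these samples.

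The growth factor genes and lists were chosen with earlier results of these data known. Named were Ankrd31, all 9 genes, receptor genes, up to 4 genes per other list by smallest p, and the nearest 2 profiles of each of the 9. Cdh16, Sycp3 and Nudt6, and the test of replicate number, were chosen after their values were seen. For Gdnf the nearest profile is not reported here.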

Additional observations from a re-analysis of the deposited data

How the results depend on the processing

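Over 19 alternatives each (other tests, scalings and filters, the replicate block, and left-out libraries or pairs), 0 of the 9 growth factor genes, 0 receptor genes and 0 partner genes passed in any fit. Inhba and Lif were lower in KO in 19 of 19, with log2 fold changes of -0.73 to -0.27 and -0.57 to -0.42, and were under an unadjusted p of 0.05 in 16 and 9. The replicate block changed no call of a growth factor gene. Over all genes the count of 0 became 8 with the replicate block, 14 with it in DESeq2, 1 with it in limma voom, 2 in DESeq2 and 1 without a count filter. Leaving out a pair as well gave 63 calls for pair 1, 57 for pair 2 and 0 for pair 3 under the block. It was 0 with any 1 library left out. The direction of small estimates was not fixed: leaving out 1 library at a time gave -0.19 to 0.14 for Gdnf, -0.11 to 0.11 for Kitl, -0.083 to 0.19 for Fgf2, -0.13 to 0.10 for Csf1, -0.013 to 0.31 for Bmp4 and -0.20 to 0.075 for Igf1. The range for Cxcl12, -0.20 to -0.01, did not cross 0. With the block and without a pair, values of the opposite sign were 0.061 for Gdnf and -0.026 for Bmp4 without pair 2. They were 0.0059 and 0.018 for Kitl without pairs 1 and 2, and -0.028 for Fgf2 without pair 1. Without pair 3 they were 0.022 for Cxcl12, 0.16 for Csf1 and 0.0028 for Igf1. With the block and without pair 2, Igf1 was -0.22 (edgeR unadjusted p = 0.0004205, adjusted p = 0.1005). That was the lowest unadjusted p of any of the 9 genes over these alternatives. The cause of these changes was not tested.

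The test of replicate number and its alternatives were added after the data were seen. It called 1586 genes in edgeR, 695 in DESeq2, and 279 to 2704 without 1 library, with 1 to 5 growth factor genes. Depth limits Lif most, since no library held over 49 counts of it.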
